A study of Mus musculus with 28 samples.

Results

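The comparison described here asks which genes responded to loss of a Foxp3 enhancer differently in thymic regulatory T (Treg) cells than in the non-Treg CD4 single-positive (CD4SP) cells of the thymus. For each gene, the log2 fold change of mutant over wild type was taken in thymic Treg cells, the same quantity in CD4SP cells was subtracted from it, and the difference was tested on raw read counts. It rests on 14 of the 28 libraries of the series. They come from 4 thymic groups, which are KO Treg cells (n = 4), WT Treg cells (n = 3), KO CD4SP cells (n = 4) and WT CD4SP cells (n = 3). KO stands for the Foxp3ΔCNS3-gfp allele, in which conserved non-coding sequence 3 (CNS3) is deleted, and WT for the Foxp3-gfp allele. All mice therefore carried a gfp reporter at Foxp3, controls included. They were male littermates, 6 to 8 weeks old, and the cells were purified by electronic sorting. The series description speaks of 2 littermates, and no source used here states whether each library came from its own animal, so the p-values measure the spread between these samples, part of which may be technical.

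Foxp3 is the X-linked transcription factor that defines the Treg lineage and keeps up its gene programme. CNS3 is an intronic enhancer of the gene that is known to act when Foxp3 is first switched on in thymocytes that have received a T cell receptor signal. CD4SP thymocytes are mature T cell precursors, most of which leave the thymus as conventional CD4 T cells, and some of which are on the way to becoming Treg cells. CNS3 lies outside the exons of Foxp3, so counts over exons say nothing of whether it was deleted.

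The thymic libraries held between 24941507 and 40754492 counts in genes, and 13338 genes had enough counts to be tested. Levels are given as CPM (read counts scaled to the TMM-adjusted library size). Foxp3 stood at 446 to 671 CPM in Treg libraries and 1.07 to 3.49 CPM in CD4SP libraries, and the summed level of 14 CD4 T cell identity genes was 11141 to 12191 CPM in KO Treg, 11631 to 11821 in WT Treg, 14730 to 17244 in KO CD4SP and 15662 to 17014 in WT CD4SP cells. Reads outside annotated genes made up 43.1 ± 1.27% in KO Treg and 47.5 ± 1.55% in WT Treg libraries (SD), without overlap, but 44.7 ± 0.698% in KO CD4SP and 44.2 ± 1.53% in WT CD4SP libraries. Summed myeloid markers reached 509 to 1177 CPM in KO Treg against 326 to 459 CPM in WT Treg libraries, and 89.4 to 288 CPM in KO CD4SP against 94.4 to 107 CPM in WT CD4SP libraries. Among KO CD4SP libraries, replicate 2 stood apart. It held 288 CPM of myeloid markers, 710 CPM of dendritic cell markers and 48.4 CPM of B cell markers, where the other 3 did not exceed 107, 320 and 16.6 CPM. Such sums can be led by 1 gene and are not a count of cells. In CD4SP cells Ccr9 had the most counts of the dendritic cell list (22806 in KO and 15782 in WT). In bulk RNA, fewer cells of a type and less RNA per cell cannot be told apart. The part of these library differences in the results was not tested.

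**Figure D1:**
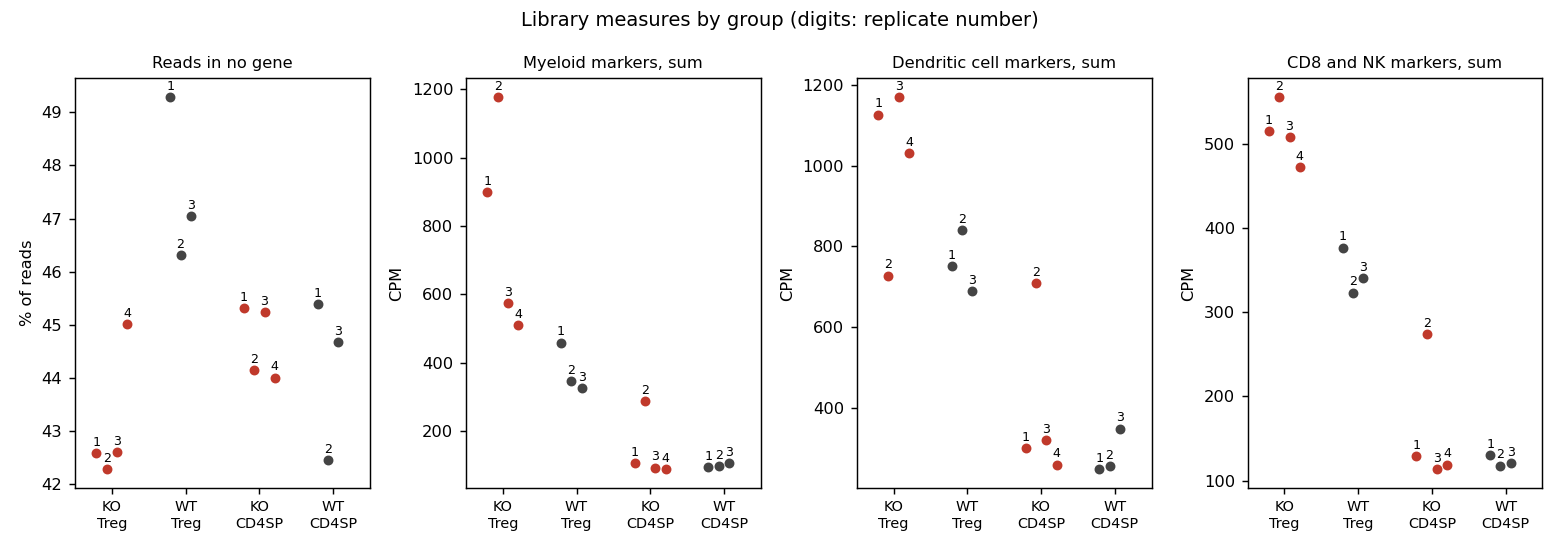
Share of reads in no annotated gene (% of reads) and summed levels of myeloid, dendritic cell and CD8 T and NK cell markers (CPM) in each thymic library, by group, with the replicate number printed at each point. KO Treg libraries lie below WT Treg libraries in the first panel, and KO CD4SP replicate 2 lies above the other CD4SP libraries in the 3 marker panels.

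The KO effect differed between Treg and CD4SP cells for 82 genes, 0.615% of the genes tested (edgeR quasi-likelihood test, Benjamini-Hochberg adjusted p under 0.05). The difference was positive, with a KO effect higher in Treg than in CD4SP cells, for 42 genes (0.315%) and negative for 40 genes (0.3%). Positive differences ran between 0.34 and 3.06 log2 units with a median of 0.66, and negative ones between -2.23 and -0.33 with a median of -0.63. Only 4 of the positive and 8 of the negative differences exceeded 1 log2 unit in size. The count depended on single libraries. It was 43 without WT Treg replicate 1, 51 without WT Treg replicate 2, 40 without WT CD4SP replicate 2, 162 without KO Treg replicate 4 and 125 without KO CD4SP replicate 2. It was 32 when the thymic libraries alone set the spread, and 3 when the share of reads in no gene entered as a covariate (Alox8, Lrrc32 and Il18r1). It was 313 with DESeq2, 179 with the myeloid marker level as a covariate and 174 with a block for the replicate number, although the numbers were not taken to pair the samples. Nearest the threshold, F2rl3 lay just inside (adjusted p = 0.0497) and Pcnx just outside (adjusted p = 0.0537).

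The difference is built from the KO effects in each population and shares their libraries, so the following is a description of its make-up. In the same fit, the KO effect passed the test for 1246 genes in Treg cells (9.34%; 562 or 4.21% higher and 684 or 5.13% lower) and for 26 genes in CD4SP cells (0.195%; 22 or 0.165% higher and 4 or 0.03% lower). Without a single library the Treg count fell to 497 (WT Treg replicate 1), 546 (WT Treg replicate 2) or 766 (KO Treg replicate 3), and the CD4SP count to 15 (WT CD4SP replicate 2). The Treg count was 695 with the thymic libraries alone, 45 with the no-gene covariate, 526 with the myeloid marker level as a covariate and 450 without KO Treg replicates 1 and 2, which held the most myeloid counts. The CD4SP count was 14 with the thymic libraries alone, 61 with DESeq2 and 4 with limma voom. For Foxp3, Lrrc32, Ccr6, Lad1, Gm4956, Atp6v0a1 and Rln3, which passed in CD4SP cells in edgeR, limma voom gave CD4SP effects of the same sign with adjusted p between 0.0517 (Gm4956) and 0.939 (Atp6v0a1), and DESeq2 called all 7. Of the 42 positive genes, 39 passed in Treg cells alone, 2 in CD4SP cells alone and 1 in neither. Of the 40 negative genes, 34 passed in Treg cells alone, 4 in CD4SP cells alone and 2 in both populations, with a fall in Treg cells and a rise in CD4SP cells for Atp6v0a1 and a smaller rise in Treg cells for Rln3. The KO effect in CD4SP cells was within 0.2 log2 units of 0 for 33 of the positive and 28 of the negative genes. KO and WT Treg libraries did not overlap for 38 of the 42 and 37 of the 40 genes, against 22.1% of all genes tested. KO and WT CD4SP libraries did not overlap for 9 of the 42 and 14 of the 40 genes, against 5.03% of all genes.

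**Figure D2:**
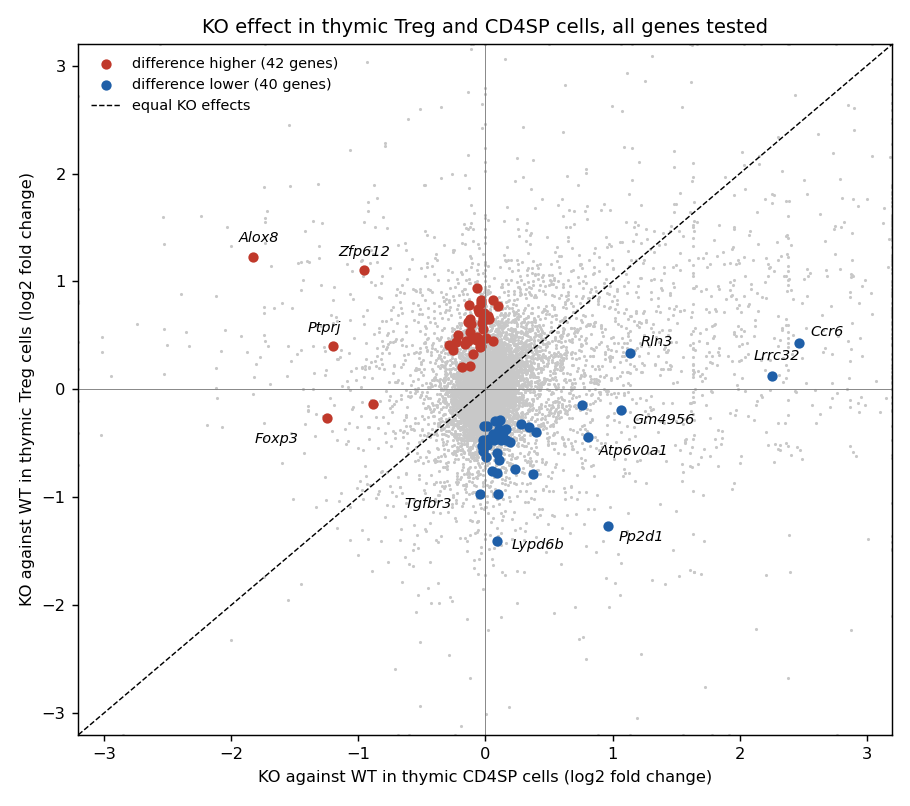
KO effect in thymic Treg cells (vertical, log2 fold change) against that in thymic CD4SP cells (horizontal, log2 fold change) for all genes tested, with the 42 genes of positive difference in red and the 40 of negative difference in blue. Points beyond the axis ends are drawn at the ends, not at their true values. Most coloured points lie near 0 on the horizontal axis, while Ccr6, Lrrc32 and Rln3 lie far to the right and Foxp3 to the left.

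Foxp3 itself (chromosome X, 7573644 to 7595245, plus strand, GRCm38) was lower in KO than in WT CD4SP cells by a larger factor than in Treg cells. Single Treg libraries read 585, 446, 532 and 614 CPM in KO Treg libraries and 671, 643 and 642 CPM in WT Treg libraries. In CD4SP cells it was 1.27, 1.91, 1.5 and 1.07 CPM in KO, from 31, 53, 43 and 39 counts, and 3.23, 3.38 and 3.49 CPM in WT, from 87, 134 and 130 counts. KO libraries lay below WT libraries in both populations without overlap. The log2 fold change was -0.26 in Treg cells (adjusted p = 0.0561, not past the test) and -1.25 in CD4SP cells (adjusted p = 8.27e-05), a difference of 0.98 (SE 0.181, 95% interval 0.61 to 1.36, adjusted p = 0.00511). The CD4SP level was 0.264% of the Treg level in KO and 0.516% in WT. With the thymic libraries alone, the difference was 1.0 with adjusted p = 0.0502, with the no-gene covariate 1.01 with adjusted p = 0.0875, and with limma voom 1.01 with adjusted p = 0.152.

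Transcripts around Foxp3 gave mixed values. 4930524L23Rik, the older symbol of the non-coding RNA Flicr (chromosome X, 7573600 to 7581027), overlaps Foxp3 on the same strand, so the counting may have divided reads between them. It read 37.7, 32.8, 32.6 and 40.0 CPM in KO Treg against 43.5, 36.6 and 37.9 CPM in WT Treg libraries, and 2.78, 1.84, 1.85 and 3.04 CPM in KO CD4SP against 4.27, 4.21 and 4.78 CPM in WT CD4SP libraries. Its groups overlapped in Treg cells and were separate in CD4SP cells. The difference was 0.75 (adjusted p = 0.0377), and it did not pass without KO CD4SP replicate 2 (0.64, adjusted p = 0.0617) or without WT Treg 2 or 3, KO Treg 1, WT CD4SP 1, 2 or 3, or KO CD4SP 3 (0.65 to 0.78). Ccdc22, which overlaps the end of Foxp3 on the other strand and encodes a part of an endosomal sorting complex, fell in both populations, by 0.38 on the log2 scale in Treg cells (adjusted p = 0.0495) and by 0.67 in CD4SP cells (adjusted p = 0.00610). The difference of 0.30 did not pass (adjusted p = 0.462). Syp, which encodes the vesicle protein synaptophysin, fell in Treg cells by 0.97 (adjusted p = 0.00153) with -0.84 in CD4SP cells, which did not pass (adjusted p = 0.316), and the difference was -0.13 (adjusted p = 0.904). Ebp, a sterol isomerase gene, rose in Treg cells by 0.31 (adjusted p = 0.0124), with a difference of 0.41 (adjusted p = 0.0844). Gm6787, a sparse transcript, fell by 1.57 in Treg cells (adjusted p = 0.0459), with a difference of -1.53 (adjusted p = 0.322).

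The windows at the Foxp3 start sites are shown because Foxp3 carries the deleted enhancer, although CNS3 itself lies outside them. They are RefSeq sequences on GRCm38.p6, 250 bases before and 50 bases after each start, plus strand, at chrX:7579426-7579725 and chrX:7580233-7580532. Capitals mark TTCNNNGAA, the letters of a STAT-type motif, which occurs in the second window.
Foxp3 window 1: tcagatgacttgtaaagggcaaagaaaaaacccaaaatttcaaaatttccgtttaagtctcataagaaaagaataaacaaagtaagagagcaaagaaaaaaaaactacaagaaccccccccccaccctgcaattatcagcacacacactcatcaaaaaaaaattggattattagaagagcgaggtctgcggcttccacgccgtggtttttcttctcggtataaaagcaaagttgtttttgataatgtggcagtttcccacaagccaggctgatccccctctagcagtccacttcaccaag
Foxp3 window 2: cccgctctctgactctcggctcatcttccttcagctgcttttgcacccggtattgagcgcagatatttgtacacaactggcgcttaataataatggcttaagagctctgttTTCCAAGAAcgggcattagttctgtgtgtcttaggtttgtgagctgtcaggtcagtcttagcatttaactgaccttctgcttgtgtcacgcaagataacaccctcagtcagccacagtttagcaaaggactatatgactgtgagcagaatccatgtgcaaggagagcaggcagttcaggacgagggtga

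Several genes that mark Treg cells were instead higher in KO CD4SP than in WT CD4SP cells, and this gave the 2 most negative differences among the called genes that reach 8 CPM in any thymic group mean. Lrrc32 (chromosome 7, 98489283 to 98502181, plus strand) encodes GARP, the surface protein that holds latent TGF-beta on Treg cells. It read 366, 307, 298 and 377 CPM in KO Treg against 315, 317 and 299 CPM in WT Treg libraries, which overlapped. Its CD4SP libraries read 1.47, 1.84, 1.12 and 1.2 CPM in KO, from 36, 51, 32 and 44 counts, against 0.519, 0.303 and 0.107 CPM in WT, from 14, 12 and 4 counts, and every KO library lay above every WT library. The log2 fold change was 0.12 in Treg cells (adjusted p = 0.448) and 2.25 in CD4SP cells (adjusted p = 8.27e-05), a difference of -2.13 (SE 0.307, 95% interval -2.76 to -1.5, adjusted p = 7.69e-04). Lrrc32 kept its call in all edgeR alternatives, at -1.98 without KO CD4SP replicate 2, and missed it only with limma voom (-2.29, adjusted p = 0.0673).

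Ccr6 (chromosome 17, 8236043 to 8257141, plus strand), the receptor for the chemokine CCL20, read 413, 316, 371 and 389 CPM in KO Treg against 288, 259 and 283 CPM in WT Treg libraries. Its CD4SP levels were 2.0, 5.77, 2.38 and 2.33 CPM in KO against 0.556, 0.656 and 0.456 CPM in WT. Both pairs of groups were separate, and KO CD4SP replicate 2 was the highest of its group. The log2 fold change was 0.43 in Treg cells (adjusted p = 0.0684) and 2.47 in CD4SP cells (adjusted p = 1.19e-04), a difference of -2.04 (SE 0.367, adjusted p = 0.00414). Without KO CD4SP replicate 2 the difference was -1.58 (adjusted p = 0.00208). With the thymic libraries alone it was -2.02 (adjusted p = 0.0559), with the no-gene covariate -2.14 (adjusted p = 0.0739) and with limma voom -1.90 (adjusted p = 0.114).

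The Ccr6 windows are shown beside this rise as the promoters of the CD4SP gene with the largest KO effect among the genes described here. They lie at chr17:8235793-8236092 and chr17:8242276-8242575, plus strand (RefSeq, GRCm38.p6). Capitals mark TTCNNNGAA matches in the first window and overlapping GGGANTTCC (NF-kB) matches, read on both strands, in the second.
Ccr6 window 1: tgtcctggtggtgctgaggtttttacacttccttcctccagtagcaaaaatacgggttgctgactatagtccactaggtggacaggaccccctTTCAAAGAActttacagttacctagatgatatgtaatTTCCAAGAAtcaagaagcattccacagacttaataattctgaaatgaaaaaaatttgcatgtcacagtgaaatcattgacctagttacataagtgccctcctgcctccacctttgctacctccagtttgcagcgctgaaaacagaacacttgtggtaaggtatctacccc
Ccr6 window 2: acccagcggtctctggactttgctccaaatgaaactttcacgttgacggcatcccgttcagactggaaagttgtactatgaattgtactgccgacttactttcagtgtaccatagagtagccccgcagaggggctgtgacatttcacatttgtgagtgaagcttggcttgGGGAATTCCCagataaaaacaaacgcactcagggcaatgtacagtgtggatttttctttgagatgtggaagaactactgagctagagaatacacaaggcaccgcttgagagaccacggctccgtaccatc

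Lad1, which encodes the filament-anchoring protein ladinin, followed the same pattern. It read 188 ± 14.6 CPM in KO Treg and 208 ± 14.5 CPM in WT Treg cells, and 10.6, 13.4, 10.7 and 10.8 CPM in KO CD4SP against 7.75, 5.30 and 7.24 CPM in WT CD4SP libraries. Its difference was -0.90 (SE 0.176, adjusted p = 0.00802), and -0.75 with adjusted p = 0.0727 without WT CD4SP replicate 2. Gm4956, an annotated pseudogene whose reads may be shared with a parent gene, read 218 ± 21.4 CPM in KO Treg and 248 ± 35.0 CPM in WT Treg cells, and 20.2 ± 5.92 CPM in KO CD4SP and 9.63 ± 1.48 CPM in WT CD4SP cells. Its groups were separate in CD4SP cells, and the difference was -1.26 (adjusted p = 0.00251).

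Of the genes past the test in both populations, Atp6v0a1, a subunit of the proton pump that acidifies vesicles, fell in Treg cells and rose in CD4SP cells. It read 41.0, 37.8, 29.6 and 39.2 CPM in KO Treg against 52.8, 51.5 and 45.9 CPM in WT Treg libraries. CD4SP libraries read 3.56, 4.08, 3.36 and 2.74 CPM in KO against 1.60, 2.02 and 2.17 CPM in WT. The groups did not overlap in either population, and the difference was -1.24 (SE 0.179, adjusted p = 7.69e-04), with effects of -0.44 in Treg cells (adjusted p = 0.00932) and 0.81 in CD4SP cells (adjusted p = 0.00565). Rln3, which encodes the peptide hormone relaxin-3, rose in both, by 0.33 in Treg cells (adjusted p = 0.0138) and by 1.14 in CD4SP cells (adjusted p = 3.11e-04). It read 63.9, 61.3, 62.3 and 55.0 CPM in KO Treg against 47.9, 47.8 and 48.5 CPM in WT Treg libraries. Its CD4SP levels were 2.09, 2.16, 1.19 and 1.89 CPM in KO against 0.779, 0.807 and 0.885 CPM in WT. The difference of -0.80 (adjusted p = 0.0315) did not pass without KO CD4SP replicate 2 (-0.72, adjusted p = 0.0612) or without any WT Treg or WT CD4SP library, KO CD4SP 1 or KO CD4SP 4 (-0.86 to -0.75).

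Another 6 Treg genes had a higher KO effect in CD4SP than in Treg cells but did not pass the main edgeR test of the difference. They were chosen after their values were seen, and all but Coro2a belong to the Treg signature list. Of the 25 genes of that list, 13 had a positive and 12 a negative difference, with a median of 0.03. Il2ra, the high-affinity chain of the IL-2 receptor, averaged 1796 ± 140.0 CPM in KO Treg and 1586 ± 114 CPM in WT Treg cells. The CD4SP libraries read 21.6, 133, 21.9 and 17.3 CPM in KO against 8.38, 7.77 and 11.6 CPM in WT. Its difference was -2.20 (adjusted p = 0.0697). Without replicate 2, the highest KO CD4SP library, it was -0.95 and passed (adjusted p = 0.00214).

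For Coro2a, a coronin that binds actin, the difference was -1.98 (adjusted p = 0.0561), and -1.23 without KO CD4SP replicate 2 (adjusted p = 0.0458). Ikzf2, which encodes the Treg transcription factor Helios, had a difference of -0.80 (adjusted p = 0.0834), and -0.56 without that library. The values were -0.49 for the costimulatory receptor Tnfrsf9 (adjusted p = 0.142), -0.46 for the inhibitory receptor Ctla4 (adjusted p = 0.256) and -0.47 for the surface protein Cd83 (adjusted p = 0.273). Without KO CD4SP replicate 2 they were -0.41, -0.25 and -0.21. DESeq2 called the difference for Coro2a (adjusted p = 0.0195), Ikzf2 (0.0471) and Tnfrsf9 (0.0466), but not for Ctla4 or Cd83. Without a filter, edgeR called Coro2a (0.0118), Il2ra (0.0146) and Ikzf2 (0.0314). With the myeloid marker level as a covariate all but Tnfrsf9 passed (0.00102 to 0.0361). None of the differences passed with limma voom, with the thymic libraries alone or with the no-gene covariate. Cd83 also rose in KO Treg cells, by 0.44 (adjusted p = 0.0169). All 6 rose in KO CD4SP cells by the edgeR test of that effect alone, with adjusted p between 0.00487 (Cd83) and 0.0330 (Tnfrsf9). Without KO CD4SP replicate 2, Tnfrsf9 (0.46, adjusted p = 0.173) and Ctla4 (0.48, adjusted p = 0.0948) did not pass, and Il2ra was at 1.12 against 2.38 with it. For the CD4SP effect, limma voom called only Ikzf2 (adjusted p = 0.0364), and DESeq2 called 5 of the 6 and gave no adjusted p for Il2ra. The Foxp3 level in the same KO CD4SP libraries was below that of every WT CD4SP library.

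**Figure D3:**
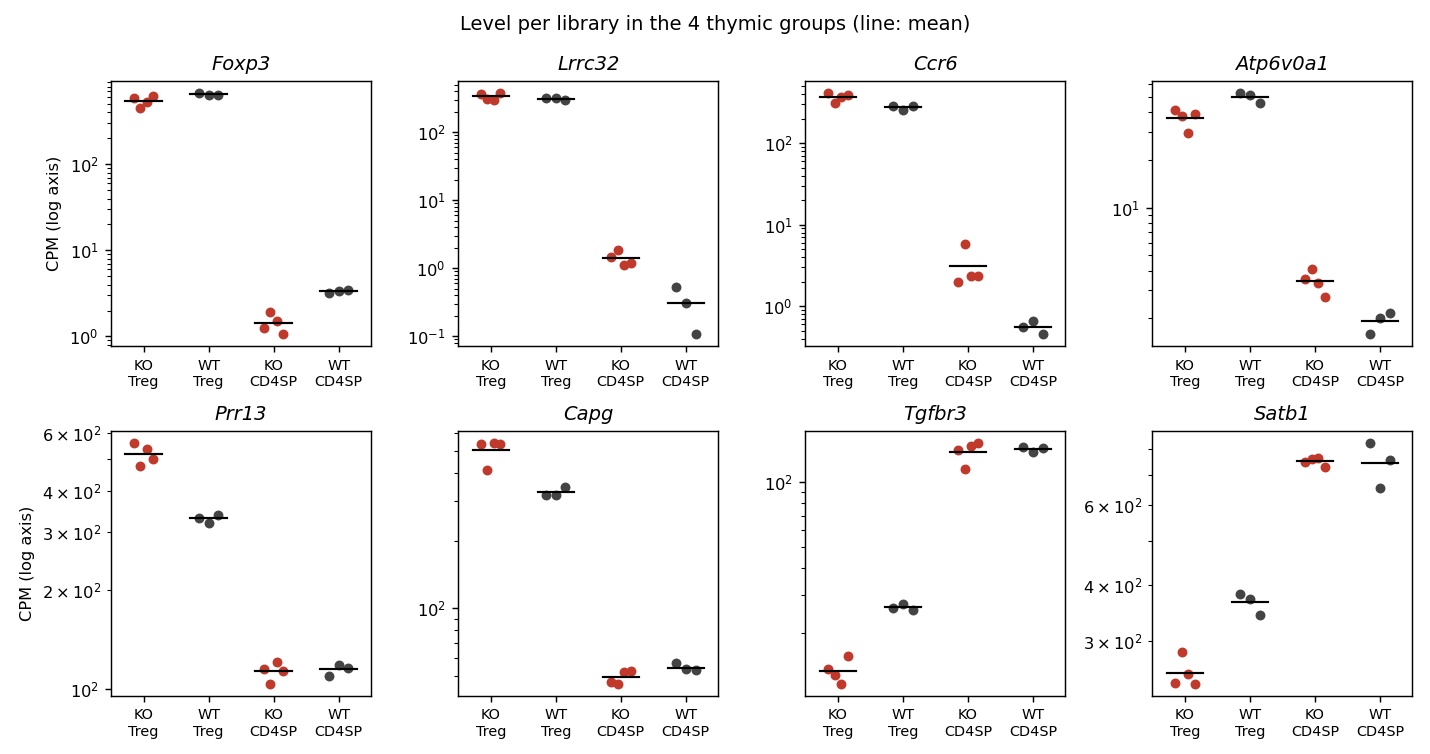
CPM (log axis) of 8 genes in each thymic library, by group, with a line at the group mean. In CD4SP cells, KO points lie below WT points for Foxp3 and above them for Lrrc32, Ccr6 and Atp6v0a1, whereas for Prr13, Capg, Tgfbr3 and Satb1 the KO and WT points separate in Treg cells and overlap or nearly meet in CD4SP cells.

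Most positive differences came from genes that rose in KO Treg cells and had a CD4SP effect close to 0. The smallest p belonged to Prr13, which encodes a small proline-rich protein. It read 559, 474, 535 and 499 CPM in KO Treg against 331, 320 and 337 CPM in WT Treg libraries, and 115, 104, 121 and 113 CPM in KO CD4SP against 110, 119 and 116 CPM in WT CD4SP libraries. The groups were separate in Treg cells and overlapped in CD4SP cells, with a difference of 0.67 (SE 0.0924, adjusted p = 7.69e-04). Syngr2, a synaptogyrin of vesicle membranes, read 284, 246, 276 and 271 CPM in KO Treg against 169, 168 and 178 CPM in WT Treg libraries, and averaged 41.3 ± 3.83 CPM in KO CD4SP and 40.6 ± 2.90 CPM in WT CD4SP cells (difference 0.63, adjusted p = 9.47e-04). Cdca7l, a nuclear protein that binds MYC, averaged 45.6 ± 2.90 CPM in KO Treg and 29.8 ± 2.30 CPM in WT Treg cells, and 34.2 ± 1.98 CPM in KO CD4SP and 34.9 ± 1.16 CPM in WT CD4SP cells (difference 0.64, adjusted p = 8.60e-04).

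Icos, the costimulatory receptor of activated T and Treg cells, read 625, 592, 668 and 649 CPM in KO Treg against 416, 452 and 495 CPM in WT Treg libraries. Its CD4SP mean was 298 ± 24.1 CPM in KO and 298 ± 12.8 CPM in WT. Its difference was 0.48 (SE 0.105, adjusted p = 0.0249) and did not pass without any of WT Treg replicates 1 and 2, KO Treg replicate 3, WT CD4SP replicates 1 and 2 and KO CD4SP replicate 3 (0.42 to 0.47, adjusted p 0.0519 to 0.113).

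Il10ra, the ligand-binding chain of the IL-10 receptor, read 58.2, 36.8, 43.9 and 57.7 CPM in KO Treg against 29.2, 25.8 and 28.2 CPM in WT Treg libraries. It averaged 21.96 ± 0.668 CPM in KO CD4SP and 22.5 ± 0.913 CPM in WT CD4SP cells. The difference was 0.86 (adjusted p = 0.0187), and it did not pass without WT Treg replicate 2 (0.81, adjusted p = 0.0713) or WT CD4SP replicate 2 (0.84, adjusted p = 0.0741).

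Il18r1, a chain of the IL-18 receptor, read 95.2, 100, 98.4 and 126 CPM in KO Treg against 63.7, 53.1 and 67.2 CPM in WT Treg libraries. Its CD4SP levels were 41.3, 33.9, 31.6 and 32.9 CPM in KO against 36.1, 27.3 and 34.5 CPM in WT, which overlapped. The difference was 0.67 (SE 0.151, adjusted p = 0.0297), and 1.14 (adjusted p = 3.68e-04) with the no-gene covariate. It did not pass without any of WT Treg replicates 1 and 2, WT CD4SP replicates 1 and 3 and KO CD4SP replicates 3 and 4 (0.58 to 0.70, adjusted p 0.0501 to 0.119). Its promoter is shown because Il18r1 also rose in the splenic libraries described further on. Of its 3 RefSeq promoter windows, windows 1 and 2 held no match to any motif searched here and are left out. Window 3 lies at chr1:40465756-40466055 (GRCm38.p6, plus strand). Capitals mark TTCNNNGAA matches.
Il18r1 window 3: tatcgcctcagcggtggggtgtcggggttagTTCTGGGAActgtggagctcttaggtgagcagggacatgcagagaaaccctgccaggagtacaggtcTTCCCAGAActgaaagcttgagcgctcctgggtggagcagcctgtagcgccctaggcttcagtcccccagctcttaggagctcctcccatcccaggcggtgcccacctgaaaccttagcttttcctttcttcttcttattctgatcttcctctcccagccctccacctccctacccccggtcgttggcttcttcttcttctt

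Lgmn, the lysosomal protease legumain, averaged 75.9 ± 9.36 CPM in KO Treg and 46.0 ± 3.99 CPM in WT Treg cells, and 64.7 ± 3.0 CPM in KO CD4SP and 67.0 ± 0.715 CPM in WT CD4SP cells (difference 0.77, adjusted p = 0.00189). Psen2, a catalytic subunit of gamma-secretase, averaged 94.5 ± 13.4 CPM in KO Treg and 56.2 ± 3.38 CPM in WT Treg cells, and 38.4 ± 6.09 CPM in KO CD4SP and 40.1 ± 3.90 CPM in WT CD4SP cells (difference 0.81, adjusted p = 0.00373). Capg, an actin-capping protein of the Treg signature, read 538, 410, 544 and 536 CPM in KO Treg against 319, 319 and 348 CPM in WT Treg libraries. In CD4SP cells it read 47.0, 46.3, 52.1 and 52.9 CPM in KO against 57.02, 53.7 and 53.1 CPM in WT, slightly lower in every KO library, though that effect did not pass (-0.14, adjusted p = 0.943). The difference for Capg was 0.76 (SE 0.134, adjusted p = 0.00373). Tagln2, the actin-binding transgelin-2, averaged 263 ± 12.6 CPM in KO Treg and 173 ± 16.7 CPM in WT Treg cells (difference 0.72, adjusted p = 0.00373).

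Further positive differences were 0.77 for Pglyrp1, a peptidoglycan recognition protein (adjusted p = 0.00251), 0.72 for Matk, a kinase that restrains Src-family kinases (adjusted p = 0.00931), 0.77 for Sdcbp2, a PDZ-domain protein (adjusted p = 0.0217), 0.91 for Golm1, a Golgi membrane protein (adjusted p = 0.0497), and 1.01 for Ppm1j, a protein phosphatase (adjusted p = 0.0432). KO Treg libraries lay above WT Treg libraries for each of these 5 genes. Without WT CD4SP replicate 2, Matk (0.65, adjusted p = 0.0772), Sdcbp2 (0.76, adjusted p = 0.0907), Golm1 (0.91, adjusted p = 0.142) and Ppm1j (1.08, adjusted p = 0.0772) did not pass. Leaving out other single libraries also ended the calls of Matk (WT Treg 1), Sdcbp2 (WT Treg 3 and WT CD4SP 1), Golm1 (all thymic libraries but KO Treg 2 and 3 and KO CD4SP 1 and 4) and Ppm1j (all but KO Treg 2 and 3, WT CD4SP 3 and KO CD4SP 1 and 4).

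The largest positive differences belonged to sparse genes. Alox8, a lipoxygenase gene that lies outside the naming rule, read 7.73, 2.90, 4.31 and 7.80 CPM in KO Treg against 3.2, 1.36 and 2.66 CPM in WT Treg libraries. In CD4SP cells it read 0.327, 0.433, 0.140 and 0.383 CPM in KO, from 8, 12, 4 and 14 counts, against 1.63, 1.16 and 0.751 CPM in WT, from 44, 46 and 28 counts. Its Treg groups overlapped, its CD4SP groups did not, and the difference was 3.06 (SE 0.504, adjusted p = 0.00251). Zfp612, a zinc finger gene also outside the rule, had a difference of 2.06 (adjusted p = 0.0408). Ptprj, a receptor tyrosine phosphatase, passed the test of the difference (1.60, adjusted p = 0.0396) but neither effect alone, with 4, 4, 5 and 11 counts in KO CD4SP against 14, 22 and 13 counts in WT CD4SP libraries. Without KO CD4SP replicate 2 its difference was 1.47 (adjusted p = 0.0698), and leaving out WT Treg 2 or 3, WT CD4SP 1 or 2, or KO CD4SP 1 or 3 also ended the call (1.44 to 1.54).

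Tgfbr3, Pde3b, Satb1 and Cmah, from a list of 24 genes of quiescent and naive T cells, had negative differences with CD4SP effects that did not pass the test. Tgfbr3, the TGF-beta co-receptor betaglycan, read 13.6, 12.8, 11.7 and 15.7 CPM in KO Treg against 26.2, 27.3 and 25.6 CPM in WT Treg libraries, and 141, 115, 147 and 153 CPM in KO CD4SP against 146, 138 and 145 CPM in WT CD4SP libraries. The Treg groups were separate and the CD4SP groups overlapped, with a difference of -0.92 (SE 0.154, adjusted p = 0.00251). Pde3b, a phosphodiesterase that breaks down cyclic AMP, read 5.68, 8.23, 6.74 and 5.91 CPM in KO Treg against 14.7, 10.7 and 13.4 CPM in WT Treg libraries. It averaged 168 ± 20.7 CPM in KO CD4SP and 156 ± 16.6 CPM in WT CD4SP cells, and the difference was -1.08 (adjusted p = 0.00373).

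Satb1, a chromatin organiser needed early in Treg development, read 243, 284, 254 and 241 CPM in KO Treg against 382, 371 and 343 CPM in WT Treg libraries. Its CD4SP levels were 751, 759, 765 and 730 CPM in KO against 827, 655 and 758 CPM in WT, which overlapped. The difference was -0.53 (SE 0.105, adjusted p = 0.0103). It was -0.44 without WT CD4SP replicate 2 (adjusted p = 0.0574) and -0.32 once the trend with exon length was removed (adjusted p = 0.213). Cmah, an enzyme of sialic acid synthesis, averaged 137 ± 13.0 CPM in KO Treg and 203 ± 23.7 CPM in WT Treg cells (difference -0.55, adjusted p = 0.0315). That call ended without WT Treg 1, KO Treg 3, WT CD4SP 2 or 3, or KO CD4SP 1 (-0.51 to -0.45).

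Themis, which sets T cell receptor signalling during positive selection, averaged 108 ± 10.4 CPM in KO Treg and 149 ± 14.5 CPM in WT Treg cells, and 379 ± 13.5 CPM in KO CD4SP and 362 ± 19.9 CPM in WT CD4SP cells (difference -0.54, adjusted p = 0.0315). Leaving out WT Treg 1, KO Treg 1 or 3, or WT CD4SP 1 or 2 ended that call (-0.53 to -0.45). Bcl2l11 encodes BIM, which drives the death of self-reactive thymocytes. It read 48.2, 55.8, 55.6 and 54.2 CPM in KO Treg against 70.9, 81.8 and 72.9 CPM in WT Treg libraries, and averaged 47.4 ± 2.11 CPM in KO CD4SP and 41.4 ± 2.71 CPM in WT CD4SP cells. The groups were separate in Treg cells, and the difference was -0.69 (SE 0.128, adjusted p = 0.00557). Cd28, the main costimulatory receptor, averaged 642 ± 32.4 CPM in KO Treg and 814 ± 20.9 CPM in WT Treg cells, and 1048 ± 36.7 CPM in KO CD4SP and 1055 ± 57.1 CPM in WT CD4SP cells. Its difference of -0.33 (adjusted p = 0.0326) was the smallest in size among the negative genes, and leaving out any thymic library but KO Treg 2 and 4, WT CD4SP 1 and KO CD4SP 2 ended the call (-0.35 to -0.31).

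Other negative differences came from genes with lower levels in KO Treg cells. Lypd6b, of the Ly6 family, read 1.12, 1.18, 1.76 and 1.86 CPM in KO Treg against 3.69, 3.39 and 4.67 CPM in WT Treg libraries, and averaged 51.9 ± 5.36 CPM in KO CD4SP and 48.7 ± 2.16 CPM in WT CD4SP cells (difference -1.5, adjusted p = 0.00251). The Treg groups were separate at levels far under those of CD4SP cells. Arhgap20 averaged 50.2 ± 7.02 CPM in KO Treg and 86.4 ± 7.11 CPM in WT Treg cells (difference -1.15, adjusted p = 0.0187; -1.09 without WT Treg 1, adjusted p = 0.0726, and -0.98 without WT CD4SP 2, adjusted p = 0.0988). The difference was -0.97 for Prrg1, a transmembrane protein (adjusted p = 0.00397), -0.79 for Dgke, a diacylglycerol kinase (adjusted p = 0.0201), and -0.86 for Hist2h2be, a histone H2B (adjusted p = 0.0497). Leaving out WT Treg 1 or WT CD4SP 2 ended the call of Dgke (adjusted p = 0.0603 and 0.0977), and leaving out any thymic library but KO Treg 3 and 4 and KO CD4SP 2 that of Hist2h2be (-0.91 to -0.76). The most negative difference of all, -2.23 for Pp2d1 (adjusted p = 0.0234), came from a gene at or below 2.03 CPM in every thymic library.

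Gene lists of T cell programmes are described by counts and medians, beside -0.01 for the median difference of all genes tested. Of the 13338 genes tested, 1844 had an unadjusted edgeR p under 0.05 for the difference and 828 for the CD4SP effect. By the edgeR test of the difference, 0.315% of all genes were called positive and 0.3% negative. DESeq2 called a difference for 313 of 9453 genes. Of 24 genes of quiescent and naive T cells, 4 had a negative difference past the test (Tgfbr3, Pde3b, Satb1 and Cmah) and none a positive one, where 2 were positive at an unadjusted p under 0.05 and DESeq2 called none positive. The list's median was -0.20, and 10 of its genes fell and 1 rose in KO Treg cells, where 5.13% of all genes fell and 4.21% rose, with no call in CD4SP cells in any of the 3 tools (1 gene at an unadjusted p under 0.05). Of 33 genes of activated Treg cells, 1 difference was positive (Icos) and 1 negative (Ccr6), against 0.315% and 0.3% of all genes, with a median of 0.29. DESeq2 called 3 positive and 1 negative there, with Batf and Lgals1 added. In that list 20 genes rose in KO Treg cells, where 4.21% of all genes rose, and 1, Ccr6, in KO CD4SP cells, where 0.165% of all genes rose. Of 25 Treg signature genes, Foxp3 and Capg had positive and Lrrc32 negative differences, with a median of 0.03. The list's median effects were 0.28 in Treg and 0.25 in CD4SP cells, from 9 genes past the test in Treg cells, all higher, and 6 higher and 1 lower (Foxp3) in CD4SP cells, against 4.21% higher in Treg cells and 0.165% higher and 0.03% lower in CD4SP cells over all genes. In CD4SP cells DESeq2 called 7 genes of this list higher and 1 lower, and limma voom called 1 higher. Over all genes DESeq2 called the CD4SP effect for 61 of 12292 and limma voom for 4 of 13338.

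Of 22 genes of thymocyte selection and immaturity, 1 difference was past the test (Themis), against 0.615% of all genes. A negative sign was found for 21 of them, against 6915 of all 13338 genes tested, and the median was -0.54. Their median effect was -0.34 in Treg and 0.15 in CD4SP cells, and their summed level was 2560 to 3037 CPM in KO Treg, 3181 to 3209 in WT Treg, 3193 to 3634 in KO CD4SP and 3208 to 3451 in WT CD4SP libraries. Of 36 genes of DNA replication and mitosis, no difference passed in edgeR, DESeq2 or limma voom and 3 had an unadjusted p under 0.05. A positive sign was found for 34 of them, against 6418 of all 13338 genes tested, and the median was 0.28. Their summed level was 1904 to 2195 CPM in KO Treg against 1413 to 1719 CPM in WT Treg libraries, and 2084 to 3423 CPM in KO CD4SP against 2069 to 2440 CPM in WT CD4SP libraries, the highest in KO CD4SP replicate 2. In Treg cells 8 of the 36 passed the test of that effect, all higher, against 4.21% of all genes. All genes of a list were measured in the same libraries, so the signs within a list are not independent.

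Lists of signalling downstream of the T cell receptor and cytokines held no gene past the edgeR test of the difference, nor past that of limma voom. Their genes with an unadjusted p under 0.05 numbered 5 for those induced early by the T cell receptor, 3 for IL-2 and STAT5, 6 for NF-kB and TNF receptors, 3 for interferon and 4 for immediate-early and handling genes. Over all genes tested the number was 1844 of 13338. DESeq2 called 1 in the early T cell receptor list (Tnfrsf9), 3 in the NF-kB list (Birc3, Tnfaip8 and Tnfrsf9) and 1 in the immediate-early list (Rgs1). Over all genes DESeq2 called 313 of 9453. The median was -0.12 over 25 genes induced early by the T cell receptor, 0.00 over 19 genes of IL-2 and STAT5 signalling, -0.01 over 25 genes of NF-kB and TNF receptors, -0.06 over 37 interferon-stimulated genes and 0.01 over 22 immediate-early and handling genes. Of 28 chemokine receptors and integrins 1 passed (Ccr6, negative), of 24 apoptosis regulators 1 (Bcl2l11, negative), of 21 helper lineage genes 1 (Il18r1, positive) and of 14 CD4 T cell identity genes 1 (Cd28, negative). The share over all genes tested was 0.615%. DESeq2 also called Itgb3 and Selplg among the chemokine receptors and integrins, and no further gene in the other lists of this kind. The medians of these 4 lists were 0.05, 0.02, 0.04 and 0.04 in that order.

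Markers of other cell types held no gene past the test of the difference in edgeR, DESeq2 or limma voom. At an unadjusted p under 0.05 there were 2 B cell, 4 myeloid, 1 dendritic cell, 2 CD8 T and NK cell and 3 epithelial and stromal genes. Over all genes tested there were 1844 of 13338. The median difference was -0.52 for 14 B cell, -0.04 for 17 myeloid, -0.66 for 15 dendritic cell, -0.83 for 11 CD8 T and NK cell, -1.09 for 4 gamma-delta T and NKT, 0.02 for 10 thymic epithelial and stromal, and -1.13 for 5 erythroid markers. The difference leaves out a KO effect shared by both populations. Median KO effects in Treg and CD4SP cells were 1.17 and 1.30 for myeloid and 0.44 and 1.15 for B cell markers. They were 0.55 and 1.15 for dendritic cell and -0.09 and 0.47 for CD8 T and NK cell markers. In KO Treg cells 4 of the 17 myeloid markers rose and 0 fell by the edgeR test, against 4.21% and 5.13% of all genes. The summed CD8 T and NK cell level was 472 to 555 CPM in KO Treg against 323 to 376 CPM in WT Treg libraries, and 114 to 274 CPM in KO CD4SP against 118 to 130 CPM in WT CD4SP libraries. The gene with the most counts of that list was Ccl5 in Treg cells (32463 in KO and 15200 in WT) and Cd8b1 in CD4SP cells (11048 and 9177). Among defining markers, Pax5 was at 0 in both WT groups, and Krt5, Krt14 and Foxn1 were at 0 in both CD4SP groups. KO CD4SP replicate 2 had the highest summed level in its group for each of these marker lists but the epithelial and stromal one, where it was lowest (297 CPM). Without it, 30 of the 35 named genes kept their call and the sign of all 35 stayed the same. The genes whose call ended were 4930524L23Rik, Golm1, Ppm1j, Ptprj and Rln3.

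**Figure D4:**
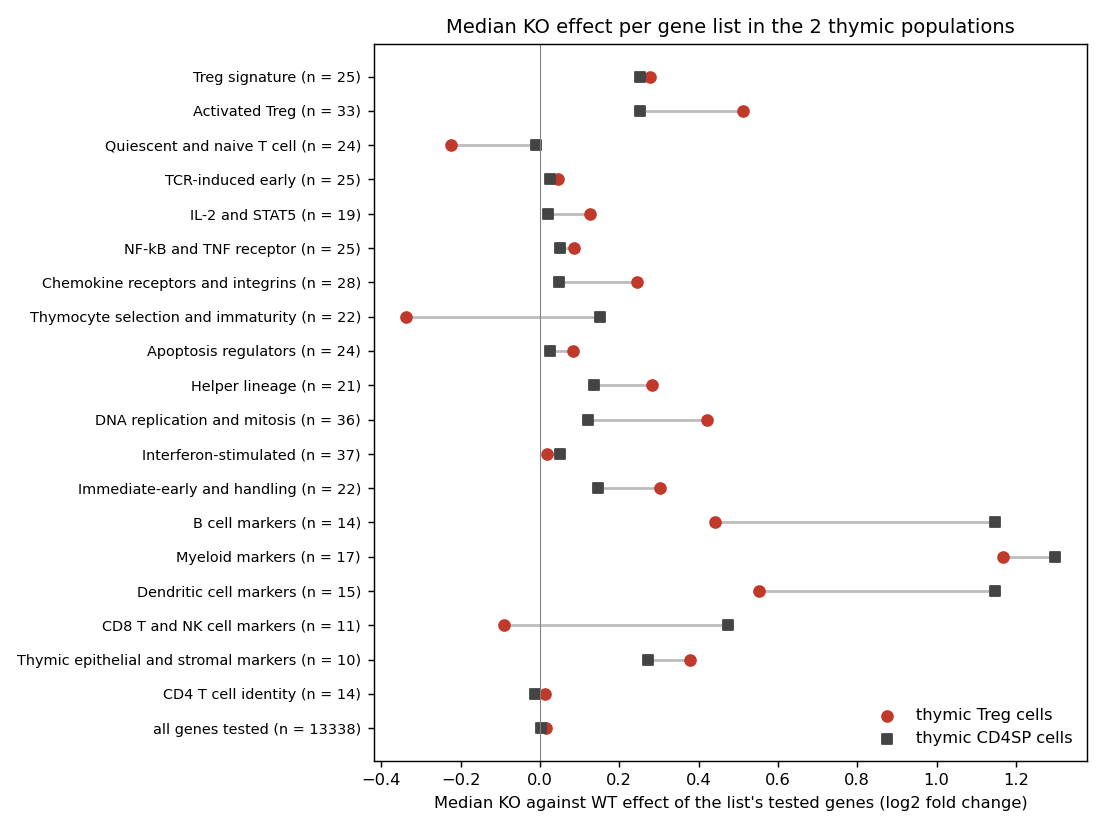
Median KO effect (log2 fold change) in thymic Treg cells (red circles) and thymic CD4SP cells (dark squares) over the tested genes of each list, with the number of genes in brackets and lists of fewer than 10 genes left out. The largest gap among the T cell programmes is that of thymocyte selection and immaturity, at -0.34 in Treg and 0.15 in CD4SP cells.

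Gene length moved with the difference. The exon length, the summed length of a gene's annotated exons, had a median of 3.05 kb over 40 of the 42 positive genes that have an annotated length, 8.15 kb over the 40 negative genes and 4.27 kb over 13216 genes tested. Of the positive genes 13 were longer than the median of all genes, against 31 of the negative genes. When all genes were divided into equal groups by exon length, the median difference was 0.08 in the shortest, 0.00 in the middle and -0.10 in the longest group. The median Treg effect was 0.12, 0.01 and -0.08 in that order, while the median CD4SP effect was 0.01, -0.01 and 0.00. The shortest group held 20 positive and 7 negative genes and the longest 5 positive and 27 negative.

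After the trend with exon length was removed from the counts, an alternative chosen after seeing the data, 67 genes passed, 57 of them among the 82. Of the 35 named genes past the test, 27 kept their call. The 8 that did not had a difference of -0.32 (Satb1, against -0.53 before), -0.43 (Cmah), -0.41 (Themis), -0.30 (Cd28), 0.71 (4930524L23Rik), 0.90 (Golm1), 0.92 (Ppm1j) and 0.68 (Sdcbp2). All but Satb1 of the 35 stayed within 1.5 times of their value. The no-gene share was also lower in KO Treg than in WT Treg libraries, and with it as a covariate only Lrrc32 and Il18r1 of the 35 named genes passed, while all 35 kept their sign. The sizes changed less than the calls, since 31 of the 35 differences stayed within 1.5 times of their value, among them Foxp3 (1.01 against 0.98) and Ccr6 (-2.14 against -2.04). Those of Cmah, Lgmn and Themis shrank further, to -0.27, 0.48 and -0.26, and that of Il18r1 grew. The part of length and of the no-gene share in the differences was not tested beyond these fits.

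**Figure D5:**
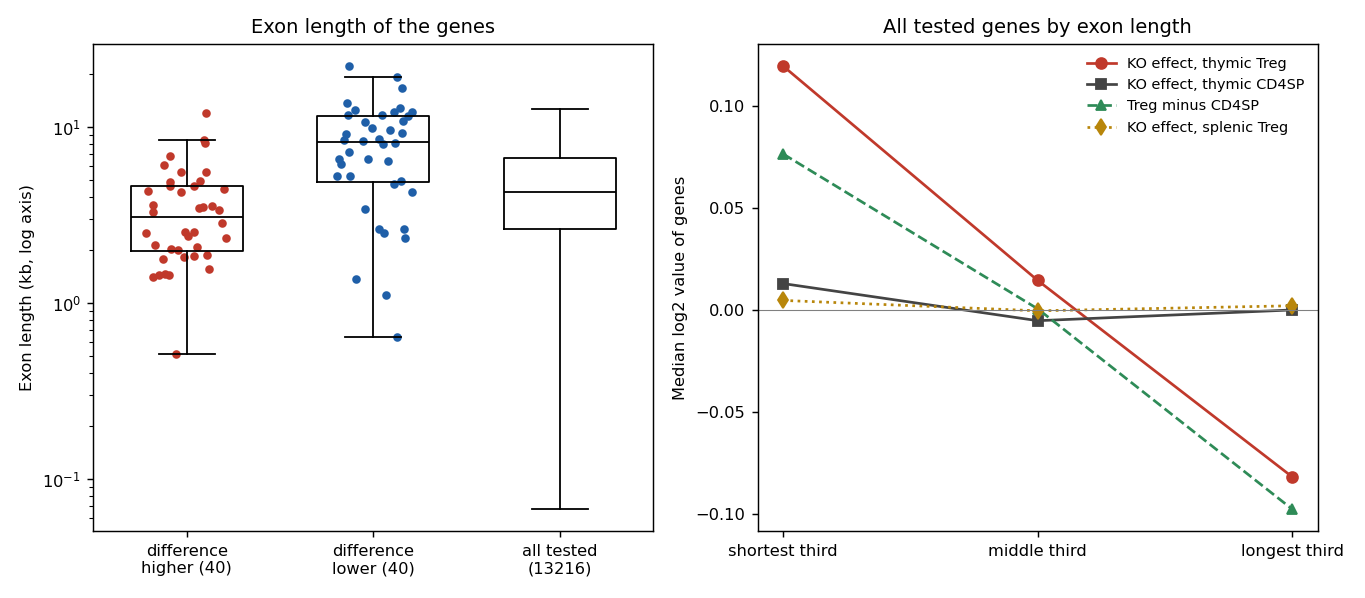
Left, exon length (kb, log axis) of genes with positive and negative differences and of all genes tested, with boxes for the quartiles and whiskers that leave out far values. Right, median log2 value of all tested genes in equal groups by exon length, for the KO effect in thymic Treg, thymic CD4SP and splenic Treg cells and for the Treg minus CD4SP difference; the Treg line falls with length and the CD4SP and splenic lines stay near 0.

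The splenic Treg libraries, which the difference does not use, gave a separate view of the same genes, although no source used here states whether they came from the same animals. The KO effect there, averaged over the rTreg and aTreg populations of the titles, passed the test for 34 genes (0.255%), 21 higher (0.157%) and 13 lower (0.0975%). Of the 42 genes with a positive thymic difference, 33 had a positive splenic effect (78.6%, against 50.8% of all genes), with a median of 0.08. Of the 40 with a negative difference, 14 had a positive splenic effect (35%), with a median of -0.04. These medians were smaller in size than the thymic ones of 0.51 and -0.46 for the effect in Treg cells. The genes were selected by a difference that contains the thymic Treg effect but not the splenic effect. That selection favours large thymic values, so the gap cannot show whether the effect was weaker in the spleen. Il18r1 rose in splenic Treg cells by 0.66 (adjusted p = 2.22e-05), beside 0.77 in thymic Treg cells. Ugcg, which encodes ceramide glucosyltransferase and has a thymic difference of -0.63 (adjusted p = 0.00373), fell in the spleen by 0.33 (adjusted p = 0.00341). 4930524L23Rik fell in the spleen by 0.33 (adjusted p = 0.0437). Foxp3 (-0.21, adjusted p = 0.2), Lrrc32 (-0.05, adjusted p = 0.928) and Ccr6 (0.05, adjusted p = 0.964) did not pass there.

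Promoter windows from RefSeq (GRCm38.p6, 300 bases each) were found for 30 of the 42 positive genes, with 43 windows, and for 26 of the 40 negative genes, with 39 windows. Motifs were searched on both strands. TTCNNNGAA (STAT) occurred in 9.30% of windows of positive genes and 7.69% of windows of negative genes, against 7.06% for all genes tested. TGANTCA (AP-1) occurred in 9.30% and 5.13% of them, against 5.21%. TGTTTAC (forkhead) occurred in 2.33% and 2.56%, against 2.69%. GGGANTTCC (NF-kB) occurred in no window of positive genes and in 5.13% of windows of negative genes, those of Ccr6 and 4833420G17Rik, against 2.29%. The shares over all promoters of the table were 8.30% (STAT), 7.81% (AP-1), 3.65% (forkhead) and 1.68% (NF-kB). These shares rest on at most 4 windows with a match in either gene group.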

How the data were processed

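RNA-seq libraries were made from sorted cells with TRIzol extraction, SMART amplification and paired-end sequencing on an Illumina HiSeq, per the labels' protocols. The submitters' processing notes name Trimmomatic, STAR, HTSeq and the mm10 build. No source used here gives versions, annotation or strand settings, so genes that overlap, antisense ones included, may take each other's reads. The deposited files hold the authors' raw counts per gene symbol, not normalised, for 23420 symbols. Library sizes and tests leave out the lines without a gene name. In thymic libraries reads outside genes were 42.3 to 49.3% and ambiguous reads 0.612 to 0.763%. Libraries of 1 group differed by more than sampling noise (chi-square per degree of freedom 7.31 to 39.6).

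In R 4.3.3, edgeR 4.0.16 tested the counts by quasi-likelihood after filterByExpr (13338 genes left) and TMM scaling (factors 0.970 to 1.04). The fit had 1 mean for each of the 8 groups of the series, all 28 libraries and 20 residual degrees of freedom. The contrast was (KO Treg - WT Treg) - (KO CD4SP - WT CD4SP), with Benjamini-Hochberg adjustment over all genes tested and a threshold of 0.05. The biological coefficient of variation was 12.7%. Errors beside CPM are SD, with n = 4 for KO and 3 for WT groups, and SE belongs to log2 values. The fit was tested on simulated counts.

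The gene lists and the naming rule were chosen with earlier results of these data known. Named genes are Foxp3, and, of the genes that passed, reach 8 CPM in a thymic group mean and carry no predicted, small RNA or receptor segment name, the 12 largest in each direction and the 6 with the smallest p. Added to these are up to 4 per list, the 4 with the smallest p of each make-up class, and genes within 1 Mb of Foxp3 past any of the thymic tests. Genes outside the rule were chosen after their values were seen. Positions and exon lengths come from GENCODE M21 (GRCm38), where 21777 symbols were found as written and 1260 as synonyms. Alternatives were DESeq2 1.42.0, limma 3.58.1 (voom), RLE size factors, no filter, thymic libraries only, covariates, a replicate block, an exon-length trend and leaving out each thymic library.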

Additional observations from a re-analysis of the deposited data

Results flagged for a closer look

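The KO effect differed between thymic Treg and CD4SP cells by the test of the difference itself for 35 of the 45 named genes, against 0.615% of all genes tested. Most parts of the naming rule require a gene to pass that test, so this count follows from the rule and is not a result. The log2 difference of each gene is repeated here as a value. Among receptors and Treg genes it was 0.98 for Foxp3, 0.75 for 4930524L23Rik, 0.48 for Icos, 0.86 for Il10ra, 0.67 for Il18r1, 0.76 for Capg, -2.13 for Lrrc32, -2.04 for Ccr6 and -0.33 for Cd28. Among genes of quiescence, selection and death it was -0.92 for Tgfbr3, -1.08 for Pde3b, -0.53 for Satb1, -0.55 for Cmah, -0.54 for Themis and -0.69 for Bcl2l11. Among the other genes with a higher effect in Treg cells it was 1.60 for Ptprj, 1.01 for Ppm1j, 0.91 for Golm1, 0.81 for Psen2, 0.77 for each of Sdcbp2, Pglyrp1 and Lgmn, 0.72 for Tagln2 and Matk, 0.67 for Prr13, 0.64 for Cdca7l and 0.63 for Syngr2. Among the other genes with a lower effect in Treg cells it was -1.5 for Lypd6b, -1.24 for Atp6v0a1, -1.15 for Arhgap20, -0.97 for Prrg1, -0.90 for Lad1, -0.86 for Hist2h2be, -0.80 for Rln3 and -0.79 for Dgke.

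In groups of 4 libraries, 8 of 90 highest or lowest values lay further from the rest of their group than Dixon's 95% limit allows, where chance gives 4.5. Of these, 3 were in KO CD4SP replicate 2, namely Il2ra at 133 CPM, Ccr6 at 5.77 CPM and Lad1 at 13.4 CPM. In KO CD4SP replicate 4, Bcl2l11 was low at 44.3 CPM and Ccdc22 high at 16.5 CPM. In KO Treg cells, replicate 2 was high for Ptprj at 12.2 CPM and low for Capg at 410 CPM, and replicate 4 was high for Il18r1 at 126 CPM.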

How the results depend on the processing

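All 35 named genes past the test kept the sign of their difference under every alternative run. The difference passed for 82 genes in edgeR, 79 with RLE size factors, 76 with limma voom (28 positive and 48 negative, against 42 and 40 in edgeR; 64 of the 76 among the 82) and 99 without a filter (74 among the 82). DESeq2 gave 313 genes (137 positive, 176 negative, 80 shared with the 82), 61 for the CD4SP effect and 106 for the splenic effect. With limma voom the CD4SP effect gave 4 genes and the splenic effect 58, and without a filter the splenic effect gave 53. With the thymic libraries only, 32 genes differed (29 shared), 695 passed in Treg and 14 in CD4SP cells, and 17 of the 35 named genes kept their call. With the no-gene share as a covariate the counts were 3 and 45 for the difference and the Treg effect. With the myeloid marker level as a covariate they were 179 and 526, and 96 for the spleen. Without both KO Treg libraries with the most myeloid counts, 60 genes differed and 450 passed in Treg cells. The thymic fit has fewer libraries than the main one. Without KO CD4SP replicate 2, that fit gave 84 genes for the difference, 1348 for the Treg effect and 18 for the CD4SP effect. The cause of these changes was not tested.

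Leaving out 1 thymic library at a time gave 40 to 162 genes for the difference, 497 to 1699 for the Treg effect and 15 to 35 for the CD4SP effect. The splenic effect gave 28 to 78 genes in the same fits. No splenic library was left out, so that range does not show how the splenic effect depends on its own libraries. Syp, which did not pass, ran between -0.25 and 0.036, positive only without KO Treg replicate 2, against -0.13 with all libraries.

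Same-numbered Treg and CD4SP libraries correlated over 0.1 in 5 of 7 pairs (r 0.00409 to 0.367, all above 0). Pairs of unlike number in the same genotype ran between -0.276 and 0.306. Of the 7, 3 correlated best with their own number, and KO Treg 4 narrowly did not (0.301 against 0.306). On that count the numbers were not taken to pair the samples. With a replicate block the difference passed for 174 genes, the 82 among them. The block gives no value for the KO effects, since its numbers are nested in genotype, and the thymic fits give none for the spleen. Genes with few counts in CD4SP cells, such as Lrrc32 and Alox8, are limited by depth.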
